A study of Mus musculus with 12 samples.

Results

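The genes described here are 8 stretch-responsive stress genes of the sarcomere: Ankrd1, Ankrd2 and Ankrd23 (muscle ankyrin repeat proteins), Csrp3, Fhl1 and Fhl2 (LIM domain proteins), and Xirp1 and Xirp2 (Xin actin-binding repeat proteins). They were taken by name from a table of 78334 genes, with earlier results of these data known. All 8 had enough counts to be among the 16981 genes tested. Poly(A) RNA of the mouse left ventricle was sequenced in 12 animals, 1 library each, in 3 groups of 4. UNX/DOCA ITF2357 mice had UNX/DOCA surgery (removal of a kidney combined with deoxycorticosterone acetate, a mineralocorticoid), which per the labels induces diastolic dysfunction, and after 4 weeks were fed ITF2357, also called givinostat, which inhibits histone deacetylases, in their chow for 4 more weeks. UNX/DOCA vehicle mice had the same surgery and ate normal chow over those weeks, and Sham vehicle mice had a sham operation and normal chow. ITF2357 was not given to Sham mice in the samples used here, so the drug was measured on the UNX/DOCA background alone. The sources used here do not state strain, sex or age.

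Heart muscle senses stretch where titin, the giant spring of the sarcomere, meets the Z-disc and the I-band. The muscle ankyrin repeat proteins bind the titin spring in the I-band and also enter the nucleus. Csrp3 (muscle LIM protein) sits at the Z-disc, Fhl1 and Fhl2 dock on the cardiac spring element of titin, and the Xin proteins bind actin at the intercalated disc, the junction between heart muscle cells. Ankrd1 in particular is known as one of the transcripts most readily induced when a heart muscle cell is stretched or overloaded, and human mutations in CSRP3 and FHL1 cause inherited heart or skeletal muscle disease.

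The promoters of 7 of the 8 genes were matched by symbol in a RefSeq table of the GRCm38.p6 build, and Xirp1 is named only. Each window is the 250 bases before the RefSeq start, given 5' to 3' on the gene's own strand. A total of 4 windows are shown: that of Ankrd1, because it was the member called between groups, and those of Xirp2, Fhl1 and Fhl2, because they hold matches to muscle gene elements that few promoters carry. Capitals mark the matches to the motifs searched. The Ankrd1 window lies at chr19:36119845-36120094 (minus strand), Xirp2 at chr2:67445752-67446001 (plus strand), Fhl1 at chrX:56779433-56779682 (plus strand) and Fhl2 at chr1:43196762-43197011 (minus strand). The Fhl1 window lies far inside the annotated gene (chrX:56731787-56793346, 10 transcripts), so it belongs to an internal start. The annotated start upstream of it was not searched. The Ankrd1 window also lies within its annotated gene, close to the 5' end. The Fhl2 window crosses the 5' end of its annotated gene (chr1:43123074-43196984), and its motif matches lie inside the gene.
Ankrd1: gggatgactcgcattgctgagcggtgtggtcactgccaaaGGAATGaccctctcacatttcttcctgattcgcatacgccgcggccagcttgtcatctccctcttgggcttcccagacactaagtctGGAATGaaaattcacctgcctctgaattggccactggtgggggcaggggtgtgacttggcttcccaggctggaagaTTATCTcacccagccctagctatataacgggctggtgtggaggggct
Xirp2: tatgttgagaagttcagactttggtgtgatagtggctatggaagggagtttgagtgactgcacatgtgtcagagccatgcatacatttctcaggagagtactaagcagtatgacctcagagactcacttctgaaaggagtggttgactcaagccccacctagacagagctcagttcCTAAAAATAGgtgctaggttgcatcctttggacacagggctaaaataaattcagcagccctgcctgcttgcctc
Fhl1: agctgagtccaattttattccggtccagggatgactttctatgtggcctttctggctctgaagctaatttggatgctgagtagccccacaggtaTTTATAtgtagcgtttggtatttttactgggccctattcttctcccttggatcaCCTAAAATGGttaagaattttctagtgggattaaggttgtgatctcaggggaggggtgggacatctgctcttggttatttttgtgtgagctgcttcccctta
Fhl2: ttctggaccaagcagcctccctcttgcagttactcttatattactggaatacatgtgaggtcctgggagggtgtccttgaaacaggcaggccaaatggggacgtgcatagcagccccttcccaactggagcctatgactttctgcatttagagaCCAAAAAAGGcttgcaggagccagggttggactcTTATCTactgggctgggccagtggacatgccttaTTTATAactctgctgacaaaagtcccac

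The motifs searched on both strands were GGAATG (a core for TEAD factors, the DNA-binding partners of YAP and TAZ), AGATAA (a core for GATA factors), the CArG box (serum response factor), the MEF2 element, and TATAAA, which the basal factor TBP binds. Counted back from the start, the Ankrd1 window held GGAATG at -210 to -205 and again at -123 to -118, and AGATAA, read on the other strand as TTATCT, at -47 to -42. Among 32817 mouse promoter windows of the same length, 12.6% held GGAATG and 9.99% held AGATAA, so single matches of these short cores are common. Xirp2 carried a MEF2 element, CTAAAAATAG, at -74 to -65, which 0.509% of windows held. Fhl1 carried a CArG box, CCTAAAATGG, at -102 to -93, and Fhl2 another, CCAAAAAAGG, at -96 to -87, an element that 1.47% of windows held. Fhl2 also held AGATAA at -62 to -57 and TATAAA at -28 to -23, and Fhl1 held TATAAA at -156 to -151, all 3 on the other strand, and 12.4% of windows held TATAAA. Of the windows not shown, that of Ankrd2 held TATAAA at -29 to -24, that of Ankrd23 held AGATAA at -216 to -211, and that of Csrp3 held none of these motifs. The CArG box and MEF2 element read the same way on both strands, no matches of different motifs overlapped, and a match describes letters in the window and is not a measured binding site.

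Libraries held 23.4 to 34.9 M counts, of which mitochondrially encoded genes took 23.7% to 27.8%. Levels are TMM-scaled CPM, which are counts set to a common library size, and 1 CPM was 28.3 counts at the mean depth. As the tissue label says, the libraries were of heart muscle: 8 of 8 cardiomyocyte markers were present in every library, and their summed level was 56602 to 62099 CPM in UNX/DOCA ITF2357, 54094 to 61067 CPM in UNX/DOCA vehicle and 56806 to 68584 CPM in Sham vehicle. Markers of atrial muscle summed to 1.15 to 4.82 CPM and those of fast skeletal muscle to 0.881 to 2.06 CPM over the 12 libraries, with Bmp10 at 0 counts in 3 libraries and Myh4 in 10. Summed fibroblast markers (543 to 908 CPM) overlapped between the groups. Summed endothelial markers were 513 to 775 CPM in UNX/DOCA ITF2357, 681 to 739 CPM in UNX/DOCA vehicle and 591 to 673 CPM in Sham vehicle. The UNX/DOCA vehicle libraries thus all lay above those of Sham vehicle, but the single markers differed. Between UNX/DOCA vehicle and Sham vehicle, Pecam1 averaged 221 and 161 CPM, Cdh5 175 and 151 CPM, and Kdr 167 and 192 CPM. Tie1 (100 and 98.5 CPM) and Emcn (36.4 and 35.5 CPM) were nearly level. The part of this in the results was not tested. UNX/DOCA vehicle replicates 3 and 4 stood apart in their neutrophil markers. Called differences from UNX/DOCA vehicle in the related lists are also given without them, as are some of Ankrd1, Ankrd23 and Xirp1. Fits without them keep only replicates 1 and 2 of that group. Medians, counts at an unadjusted p and list genes that were not called are given with all libraries alone. In bulk tissue, fewer cells of a type and less RNA per cell cannot be told apart.

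The 8 genes differed widely in their level per length of exon. In Sham vehicle, Fhl2 was highest at 823 ± 49.5 CPM per kb of merged exon, followed by Csrp3 at 459.6 ± 37.8 and Ankrd1 at 280.3 ± 71.2 CPM per kb (SD, n = 4). The ranges of these 3 genes over the 4 Sham vehicle libraries did not overlap: 773 to 871 CPM per kb for Fhl2, 411 to 491 for Csrp3 and 219 to 381 for Ankrd1. Per length of the longest annotated transcript, however, Csrp3 (451 to 539 CPM per kb) and Ankrd1 (313 to 544) overlapped. Fhl1 (74.6 ± 21.1), Xirp1 (69.6 ± 14.4) and Xirp2 (55.9 ± 7.03 CPM per kb) followed, and their ranges overlapped, so their order is within the spread. Ankrd23 stood at 3.88 ± 1.33 and Ankrd2, which is chiefly a skeletal muscle gene, at 0.343 ± 0.220 CPM per kb. Of the 3 muscle ankyrin repeat genes, Ankrd1 thus had by far the highest level in the ventricle.

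**Figure D1:**
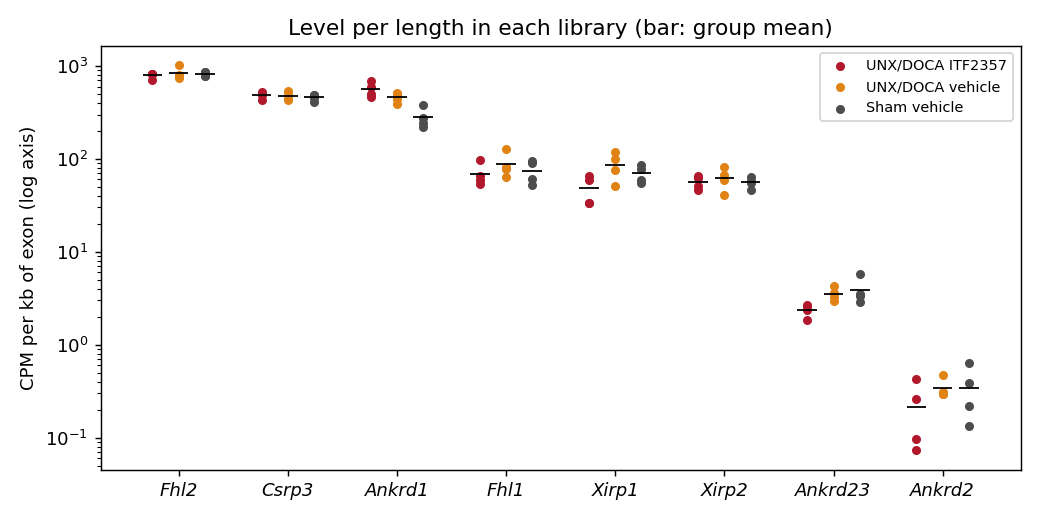
Level per length of each gene in each library, as TMM-scaled CPM per kb of merged exon on a log axis, with a bar at the group mean of 4 libraries. Fhl2, Csrp3 and Ankrd1 lie highest in all 3 groups, and on this length Ankrd1 overlaps Csrp3 in both UNX/DOCA groups: its mean is 563 CPM per kb in UNX/DOCA ITF2357, 459 CPM per kb in UNX/DOCA vehicle and 280.3 CPM per kb in Sham vehicle.

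The place of Ankrd1 in that order differed between the groups and also with the length used. Under ITF2357, Ankrd1 averaged 563 ± 108 CPM per kb and Csrp3 487 ± 41.9, while in UNX/DOCA vehicle Ankrd1 averaged 459 ± 56.3 and Csrp3 474 ± 51.3 CPM per kb (SD, n = 4). Per merged exon length, the ranges of the 2 genes overlapped in both UNX/DOCA groups and were apart in Sham vehicle. Per longest transcript, Ankrd1 lay above Csrp3 in every library of UNX/DOCA ITF2357 (656 to 997 and 472 to 582 CPM per kb). On that length its mean was also above that of Csrp3 in UNX/DOCA vehicle (656 ± 80.5 and 520.4 ± 56.3 CPM per kb), with overlapping ranges, and below it in Sham vehicle (400.4 ± 102 and 505 ± 41.5 CPM per kb). Per count of Csrp3 in the same library, a ratio chosen after the data were seen and given with no test, Ankrd1 had 1.15, 1.32, 1.52 and 1.01 counts in UNX/DOCA ITF2357, 0.779, 0.970, 1.26 and 1.25 in UNX/DOCA vehicle, and 0.576, 0.589, 0.838 and 0.613 in Sham vehicle. Within a library this ratio does not depend on how the libraries are scaled.

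Across the 3 comparisons, 1 of the 8 genes was called, which here means an adjusted p under 0.05, in 1 comparison: Ankrd1 rose in UNX/DOCA ITF2357 against Sham vehicle. For UNX/DOCA vehicle against Sham vehicle, edgeR's quasi-likelihood test with Benjamini-Hochberg adjustment over all genes called 0 of the 8 genes, as it called 0% of all genes tested. At an unadjusted p under 0.05 the counts were 1 of 8 genes (Ankrd1) and 15.9% of all genes (2699 of 16981). DESeq2 and limma-voom with sample weights each called 1 of the 8, Ankrd1, and they called 593 and 559 genes in all. The median log2 fold change of the 8 was 0.10, beside 0.01 over all genes tested, and 7 of 8 values were above 0, beside 51.1% of all genes.

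For UNX/DOCA ITF2357 against UNX/DOCA vehicle, edgeR called 0 of the 8 genes, beside 0.901% of all genes. At an unadjusted p under 0.05 there were 2 of 8, Ankrd23 and Xirp1, both lower, beside 18.5% of all genes in either direction. DESeq2 called 1 of the 8 (Xirp1) and limma-voom 0. The median log2 fold change of the 8 was -0.24, beside 0.00 over all genes, and 2 of 8 values were above 0, beside 49.8% of all genes. For UNX/DOCA ITF2357 against Sham vehicle, edgeR called 1 of the 8 genes, in the higher direction, beside 1.75% of all genes in either direction and 0.913% with the ITF2357 group higher. At an unadjusted p under 0.05 there were 2 of 8 (Ankrd1 and Ankrd23), beside 20.1% of all genes. The median log2 fold change of the 8 was -0.09, beside 0.01 over all genes, and 3 of 8 values were above 0, beside 52.3% of all genes. The 3 comparisons share groups, so the UNX/DOCA vehicle libraries enter the first 2 with opposite sign, and the values of a gene in the 3 comparisons are not independent.

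**Figure D2:**
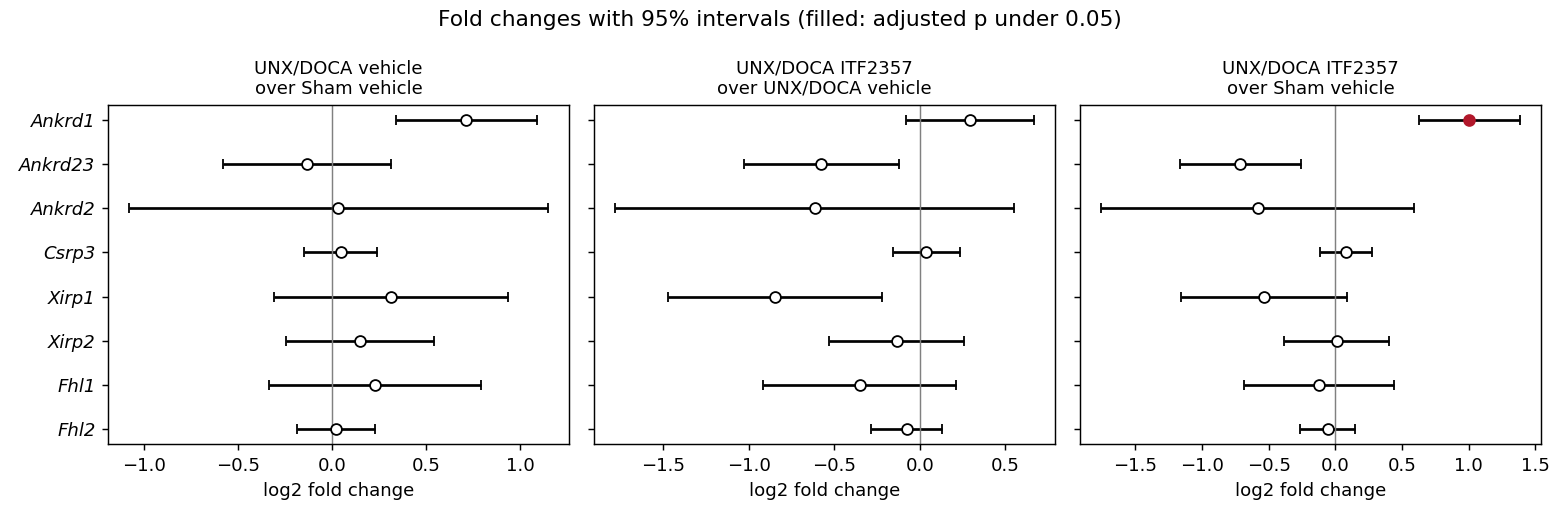
Log2 fold change of each of the 8 genes in the 3 comparisons, with 95% confidence intervals from edgeR. Ankrd1 in UNX/DOCA ITF2357 against Sham vehicle (1.01, interval 0.63 to 1.38) is the value that passed the adjusted threshold, and the intervals of Ankrd1 in the first comparison, Xirp1 in the second and Ankrd23 in the last 2 also leave out 0 without passing.

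Ankrd1, the cardiac ankyrin repeat protein, which binds the titin spring and acts as a transcriptional cofactor in the nucleus, lies on chromosome 19 (chr19:36111961-36120099 of GRCm38, minus strand). It had 1324, 1730.3, 2014 and 1426 CPM in UNX/DOCA ITF2357 replicates 1 to 4, 1123, 1267, 1439.7 and 1474 CPM in UNX/DOCA vehicle, and 632, 705, 1099.8 and 799 CPM in Sham vehicle. Every library of both UNX/DOCA groups lay above every Sham vehicle library, though the highest Sham vehicle library was close to the lowest UNX/DOCA vehicle library, and the 2 UNX/DOCA groups overlapped. With at least 16629 counts in each library, its counting error was small beside the spread between animals.

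Between UNX/DOCA ITF2357 and Sham vehicle, Ankrd1 averaged 1624 ± 312 and 809 ± 206 CPM (SD, n = 4 each), a 2.01-fold rise (95% interval 1.55 to 2.61; log2 fold change 1.01 ± 0.17 SE; adjusted p = 0.0229). The groups did not overlap, with the ITF2357 group higher, as was so for 7.27% of all genes, and Ankrd1 ranked 54 of 16981 genes by p. The call ended when UNX/DOCA ITF2357 replicate 3 was left out (log2 fold change 0.88, adjusted p = 0.0664), and likewise without Sham vehicle replicate 1 (0.90, adjusted p = 0.0759), replicate 2 (0.94, adjusted p = 0.0897) or replicate 4 (1.00, adjusted p = 0.0671). Without a filter on low counts it also ended (0.99, adjusted p = 0.0669). The fold change itself stayed between 0.88 and 1.18 on the log2 scale over the 22 alternatives, with adjusted p-values from 1.7e-05 to 0.0897.

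In UNX/DOCA vehicle against Sham vehicle, Ankrd1 averaged 1326 ± 163 and 809 ± 206 CPM, and the groups did not overlap, as for 5.03% of all genes with UNX/DOCA vehicle higher. The log2 fold change of 0.71 ± 0.17 (SE; 95% interval 0.34 to 1.09) did not pass over all genes (unadjusted p = 0.00129, adjusted p = 0.117). DESeq2 (adjusted p = 0.00927) and limma-voom (adjusted p = 0.0307) did call it, while without UNX/DOCA vehicle replicates 3 and 4 the log2 fold change was 0.56 (adjusted p = 0.689, the highest of its 22 alternatives). Between the UNX/DOCA groups, with ITF2357 over vehicle, Ankrd1 had a log2 fold change of 0.29 ± 0.17 (95% interval -0.08 to 0.67; adjusted p = 0.385). The ITF2357 mean was thus not the lower of the 2 UNX/DOCA means, and the interval spans a ratio of 0.946 to 1.59.

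Nppa, the gene of atrial natriuretic peptide and a standard transcript of ventricular load, was set beside Ankrd1 library by library after the values were seen. It had 213, 820.0, 829 and 392 CPM in UNX/DOCA ITF2357 replicates 1 to 4, 309.8, 222, 276 and 325 CPM in UNX/DOCA vehicle, and 77.8, 86.4, 148 and 143 CPM in Sham vehicle. The 4 libraries of UNX/DOCA ITF2357 stood in the same order for Ankrd1 and for Nppa, as did those of Sham vehicle, while those of UNX/DOCA vehicle did not. Nppa rose in UNX/DOCA ITF2357 against Sham vehicle (log2 fold change 2.31, adjusted p = 0.0269), with no overlap.

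Ankrd23, the diabetes-related ankyrin repeat protein, which shares the titin site with Ankrd1, had 5.03, 6.41, 7.18 and 6.96 CPM in UNX/DOCA ITF2357, 7.997, 8.79, 9.68 and 11.7 CPM in UNX/DOCA vehicle, and 15.7, 9.44, 8.98 and 7.73 CPM in Sham vehicle. All 4 ITF2357 libraries lay below every library of both other groups, and Sham vehicle replicate 1 was the highest of the 12. Against UNX/DOCA vehicle the log2 fold change was -0.58 ± 0.21 (95% interval -1.03 to -0.12; unadjusted p = 0.0168, adjusted p = 0.172), and a gap with no overlap in this direction was found for 4.36% of all genes. Against Sham vehicle it was -0.71 ± 0.21 (95% interval -1.16 to -0.26; unadjusted p = 0.00487, adjusted p = 0.0914), with such a gap for 6.39% of all genes. Without UNX/DOCA vehicle replicates 3 and 4, the value against UNX/DOCA vehicle was -0.40 (adjusted p = 0.568), and without Sham vehicle replicate 1 that against Sham vehicle was -0.46 (adjusted p = 0.212). Neither difference passed in edgeR as run here. DESeq2 (-0.72, adjusted p = 0.0242) and edgeR without a filter (-0.73, adjusted p = 0.0484) called the one against Sham vehicle, where the adjusted p ran from 0.0242 to 0.212 over the 22 alternatives. UNX/DOCA vehicle and Sham vehicle overlapped (-0.14 ± 0.21, adjusted p = 0.786).

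The level of Ankrd23 is uncertain, because 78.2% of its exon bases (2109 bp) lie within exons of the annotated gene Gm42417 on the same strand in GRCm38. That gene had 0 counts in all 12 libraries. On the 588 bp of Ankrd23 that are not shared, the same counts give 17.8 CPM per kb in Sham vehicle in place of 3.88, which leaves its place in the order unchanged. The other 7 genes share no exon bases with another gene, except that Xirp2 shares 168 bp (1.40%) with the antisense gene Gm13601, which had 0 to 2 counts a library.

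Ankrd2, the ankyrin repeat protein of slow skeletal muscle, was near the limit of detection, with 2 to 18 counts a library. It had 0.111, 0.486, 0.295 and 0.0829 CPM in UNX/DOCA ITF2357, 0.337, 0.356, 0.332 and 0.539 CPM in UNX/DOCA vehicle, and 0.152, 0.251, 0.435 and 0.721 CPM in Sham vehicle, and all groups overlapped. Its intervals were wide, from -1.78 to 0.55 on the log2 scale for UNX/DOCA ITF2357 against UNX/DOCA vehicle (adjusted p = 0.577), so a difference of that size was not detectable at this depth.

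**Figure D3:**
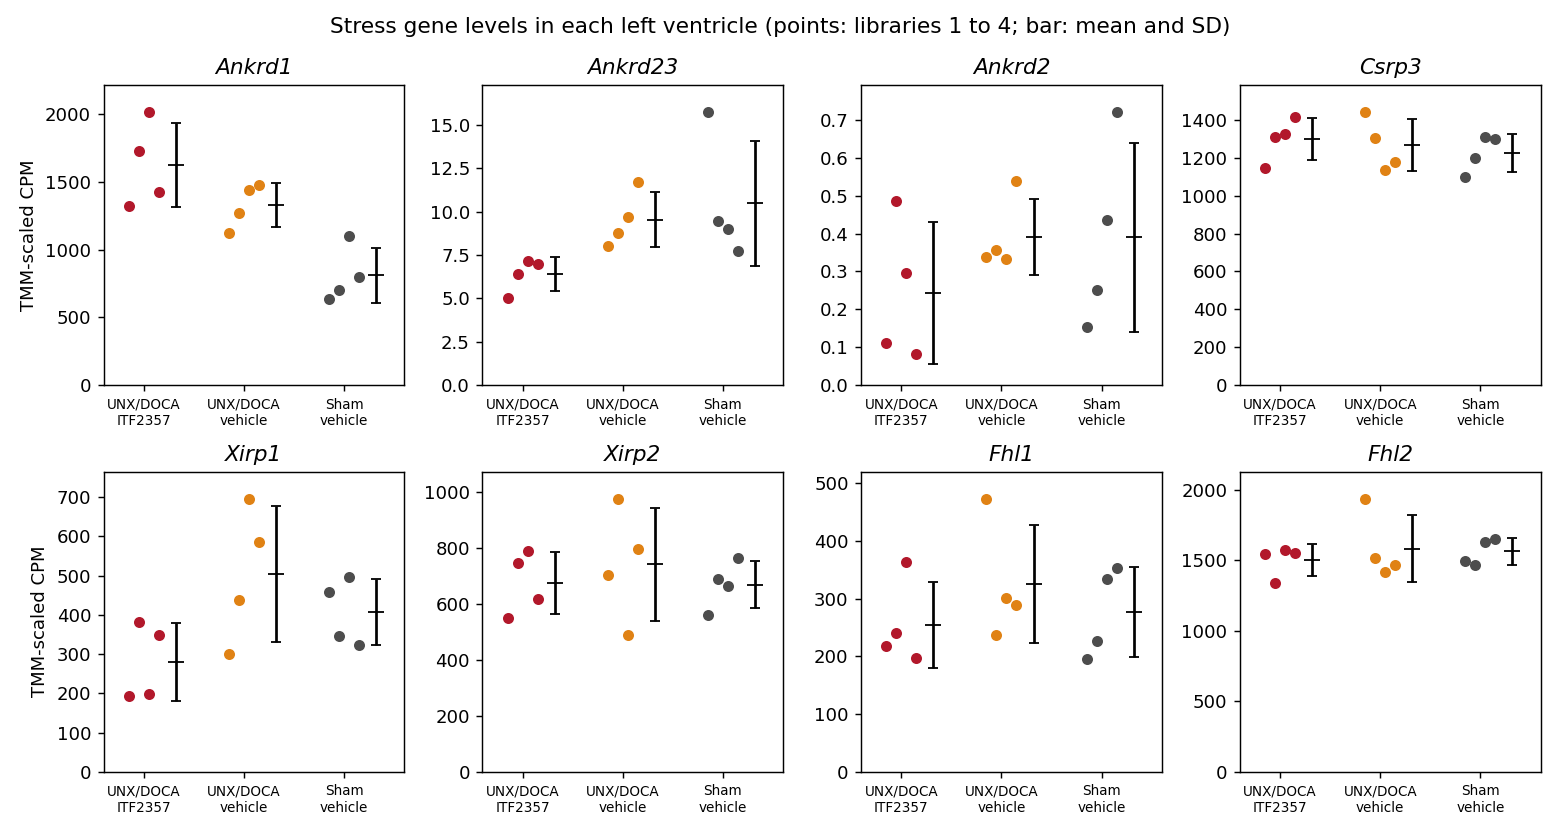
TMM-scaled CPM of the 8 genes in each library, with points for replicates 1 to 4 from left to right and a bar for the mean and SD (n = 4), each panel on its own axis from 0. Ankrd1 is lowest in Sham vehicle (632 to 1099.8 CPM), Ankrd23 is lowest in UNX/DOCA ITF2357 (5.03 to 7.18 CPM), and the groups overlap for the other 6 genes.

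Among the LIM domain genes, Csrp3 and Fhl2 had log2 fold changes between -0.08 and 0.08 in all 3 comparisons. Csrp3, the muscle LIM protein of the Z-disc, had 1148, 1312, 1326 and 1416 CPM in UNX/DOCA ITF2357, 1441, 1306, 1138 and 1179 CPM in UNX/DOCA vehicle, and 1098, 1198, 1313 and 1302 CPM in Sham vehicle. The 3 groups overlapped. Its log2 fold changes were 0.04 ± 0.09 for UNX/DOCA vehicle against Sham vehicle (95% interval -0.15 to 0.24), 0.04 ± 0.09 for UNX/DOCA ITF2357 against UNX/DOCA vehicle (-0.16 to 0.23) and 0.08 ± 0.09 for UNX/DOCA ITF2357 against Sham vehicle (-0.11 to 0.28). Over the 3 comparisons these intervals run from a ratio of 0.898 to one of 1.21, and the adjusted p-values from 0.646 to 0.858.

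Fhl2, which anchors metabolic enzymes and signalling proteins at the titin spring, had 1544, 1336, 1574 and 1553 CPM in UNX/DOCA ITF2357, 1934, 1515, 1419 and 1464 CPM in UNX/DOCA vehicle, and 1497, 1466, 1632 and 1653 CPM in Sham vehicle. One library stood high, UNX/DOCA vehicle replicate 1, and the groups overlapped. Its log2 fold change was 0.02 ± 0.10 for UNX/DOCA vehicle against Sham vehicle (95% interval -0.19 to 0.23), -0.08 ± 0.10 for UNX/DOCA ITF2357 against UNX/DOCA vehicle (-0.28 to 0.13) and -0.06 ± 0.10 for UNX/DOCA ITF2357 against Sham vehicle (-0.26 to 0.15). Its adjusted p-values ran from 0.710 to 0.940.

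Fhl1, a titin-spring LIM protein linked to the sensing of biomechanical stress in mouse hearts, varied more. It had 217, 241, 363 and 197 CPM in UNX/DOCA ITF2357, 473, 237, 301 and 289 CPM in UNX/DOCA vehicle, and 195, 226, 334 and 353 CPM in Sham vehicle. UNX/DOCA vehicle replicate 1 was again the highest library, and the groups overlapped. The log2 fold changes were 0.23 ± 0.26 for UNX/DOCA vehicle against Sham vehicle (adjusted p = 0.702), -0.35 ± 0.26 for UNX/DOCA ITF2357 against UNX/DOCA vehicle (adjusted p = 0.500) and -0.12 ± 0.26 for UNX/DOCA ITF2357 against Sham vehicle (adjusted p = 0.835). Without UNX/DOCA vehicle replicate 1, the first was -0.016 (adjusted p = 0.979) and the second -0.11 (adjusted p = 0.835).

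Xirp1, the first of the Xin proteins of the intercalated disc, had 194, 382, 197 and 349 CPM in UNX/DOCA ITF2357, 299, 439, 696 and 586 CPM in UNX/DOCA vehicle, and 458, 347, 498 and 325 CPM in Sham vehicle. The highest libraries were UNX/DOCA vehicle replicates 3 and 4, and the lowest were UNX/DOCA ITF2357 replicates 1 and 3. Means were 281 ± 99.2 CPM in UNX/DOCA ITF2357, 505 ± 173 CPM in UNX/DOCA vehicle and 407 ± 84.1 CPM in Sham vehicle (SD, n = 4), and all groups overlapped. Against UNX/DOCA vehicle the ITF2357 group had 0.556 of the level (95% interval 0.361 to 0.857; log2 fold change -0.85 ± 0.29; unadjusted p = 0.0121, adjusted p = 0.153). DESeq2 called this difference (adjusted p = 0.0417), the lowest of its 22 alternatives. Against Sham vehicle the values were -0.54 ± 0.29 for UNX/DOCA ITF2357 (adjusted p = 0.319) and 0.31 ± 0.28 for UNX/DOCA vehicle (adjusted p = 0.627).

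The 2 highest Xirp1 libraries, UNX/DOCA vehicle replicates 3 and 4, were also the 2 with the highest neutrophil markers. The summed level of S100a8, S100a9, Csf3r, Cxcr2 and Retnlg, 5 of 5 of which were tested, was 4.58 to 26.4 CPM in UNX/DOCA ITF2357, 22.9, 3.78, 470 and 151 CPM in UNX/DOCA vehicle replicates 1 to 4, and 12.98 to 41.8 CPM in Sham vehicle. The next highest Xirp1 libraries were not high in these markers. Sham vehicle replicates 3 and 1 had 498 and 458 CPM of Xirp1, with 12.98 and 34.6 CPM of the markers. UNX/DOCA vehicle replicate 2 had 439 CPM of Xirp1 and 3.78 CPM of the markers. Summed markers of macrophages (6 of 6 tested) were 139 to 249 CPM in UNX/DOCA ITF2357, 144, 198, 406 and 283 CPM in UNX/DOCA vehicle, and 141 to 181 CPM in Sham vehicle, also highest in replicates 3 and 4. Without these 2 libraries, Xirp1 had a log2 fold change of -0.40 in UNX/DOCA ITF2357 against UNX/DOCA vehicle (adjusted p = 0.678) and of -0.14 in UNX/DOCA vehicle against Sham vehicle (adjusted p = 0.963), where the sign turned. The part of these cells in the Xirp1 level was not tested.

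**Figure D4:**
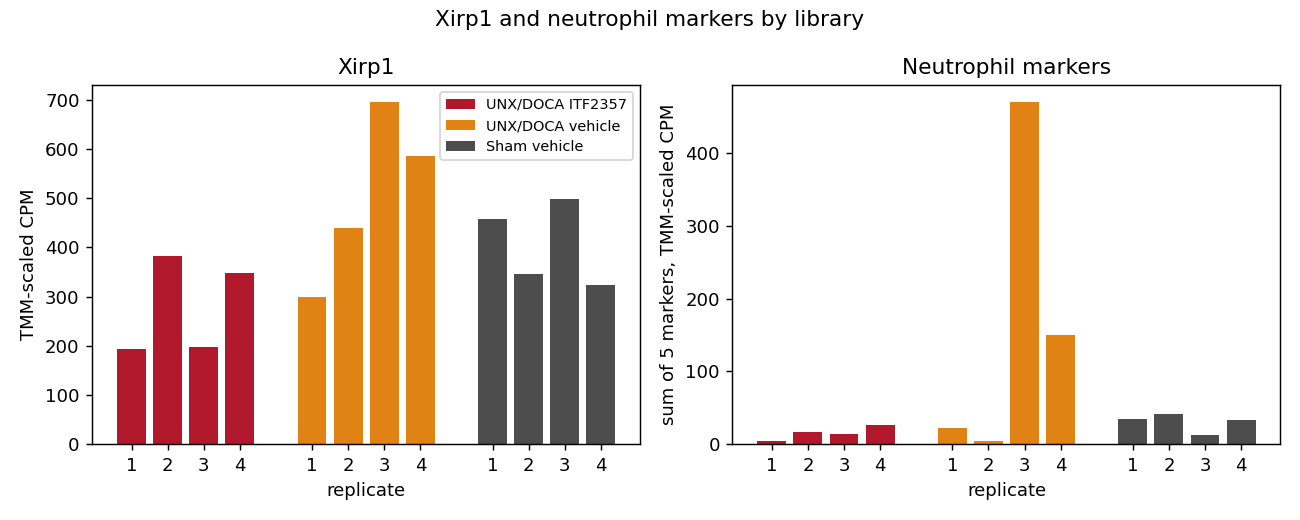
Xirp1 (left) and the summed level of 5 neutrophil markers (right) in each library, in TMM-scaled CPM, with bars from 0 for replicates 1 to 4 of each group. UNX/DOCA vehicle replicates 3 and 4 are highest in both, at 696 and 586 CPM for Xirp1 and 470 and 151 CPM for the markers.

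Xirp2, the second Xin protein and a target of MEF2 factors in mouse heart, had 548, 748, 788 and 616 CPM in UNX/DOCA ITF2357, 703, 975, 491 and 797 CPM in UNX/DOCA vehicle, and 559.7, 691, 664 and 763 CPM in Sham vehicle. UNX/DOCA vehicle replicate 3, which was highest for Xirp1, was the lowest of the 12 for Xirp2, and the groups overlapped. Log2 fold changes were 0.15 ± 0.18 for UNX/DOCA vehicle against Sham vehicle (adjusted p = 0.728), -0.14 ± 0.18 for UNX/DOCA ITF2357 against UNX/DOCA vehicle (adjusted p = 0.730) and 0.01 ± 0.18 for UNX/DOCA ITF2357 against Sham vehicle (adjusted p = 0.979).

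Within groups the 8 genes did not vary together in a way that passed a test. After removal of group means from log2 CPM, Pearson's r over the 12 libraries ran from -0.70 to 0.66 for the 28 pairs of genes, 16 of 28 values were above 0, and 0 pairs passed after adjustment over the 28 (exact permutation of libraries within groups, two-sided). The lowest value was that of Xirp1 with Fhl2 (r = -0.70, exact permutation p = 0.0279, adjusted p = 0.337; rho = -0.67, exact permutation p = 0.0399, adjusted p = 0.286), and r was -0.47 without the 2 libraries farthest from the median of Xirp1. The highest was that of Ankrd1 with Ankrd2 (r = 0.66, exact permutation p = 0.0727, adjusted p = 0.393; rho = 0.71, exact permutation p = 0.0362, adjusted p = 0.286), where Ankrd2 rests on few counts. Ankrd1 and Ankrd23, which share the titin site, had r = -0.04.

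Over all 12 libraries with no group means removed, the genes whose log2 CPM was most like that of a member were listed among 13195 genes with a mean of at least 1 CPM. For Ankrd1 they were Sgta (r = 0.95), Trim2 (0.95) and 0610005C13Rik (0.94). For Ankrd23 they were Atf3 (0.89), Mrpl2 (0.89) and Mcm6 (0.88), and for Xirp1 they were 1700017B05Rik (0.91), Sh3gl1 (0.91) and Abra (0.90), the last a muscle actin-binding activator of serum response factor signalling. The closest gene was Slc22a4 (0.85) for Ankrd2, Rnf128 (0.87) for Csrp3, Golga3 (0.85) for Xirp2, Fam114a1 (0.88) for Fhl1 and Ttc4 (0.90) for Fhl2. These values describe 12 libraries that share groups, and the highest of so many correlations is high by selection.

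Genes that work with the 8 were taken as lists, chosen with earlier results of these data known. The calls within them were less settled than their fold changes. Each of the called differences named from these lists kept its direction in the 22 alternatives and was called in 5 (Trim55 against UNX/DOCA vehicle) to 16 of them (Flnc against UNX/DOCA vehicle, Nppa against Sham vehicle). Each of these calls ended in at least 1 of the fits that left out a single library. Of 24 titin and Z-disc partners, edgeR called 0 in UNX/DOCA vehicle against Sham vehicle, 3 lower and 0 higher in UNX/DOCA ITF2357 against UNX/DOCA vehicle, and 2 lower and 0 higher in UNX/DOCA ITF2357 against Sham vehicle. The medians of their log2 fold changes were 0.11, -0.17 and -0.05 in that order, beside 0.01, 0.00 and 0.01 over all genes tested. At an unadjusted p under 0.05 there were 5 higher and 2 lower, then 1 higher and 8 lower, then 1 higher and 6 lower. Over all genes, 15.9%, 18.5% and 20.1% passed that threshold in either direction. For this list and those below, the shares called over all genes were 0%, 0.901% and 1.75% in the same order. Flnc, the filamin that crosslinks actin at the Z-disc and binds the Xin proteins, had 247, 402, 323 and 315 CPM in UNX/DOCA ITF2357, 556.5, 616, 747 and 681 CPM in UNX/DOCA vehicle, and 341, 362, 500.4 and 497 CPM in Sham vehicle. All 4 ITF2357 libraries lay below all 4 UNX/DOCA vehicle libraries, and Flnc fell by 1.01 on the log2 scale (SE 0.16, adjusted p = 0.0204). The 5 list genes called in UNX/DOCA ITF2357 against UNX/DOCA vehicle were not called without UNX/DOCA vehicle replicates 3 and 4, with log2 fold changes (adjusted p in brackets) of -0.87 (0.175) for Flnc, -0.53 (0.231) for Pdlim7, -0.34 (0.123) for Trim55, -1.07 (0.107) for Fhl3 and -1.01 (0.0707) for Rcan1. With all libraries these fold changes were -1.01, -0.61, -0.32, -1.03 and -1.12 in the same order of genes. Over all genes, 12 were called without these 2 libraries and 153 with them. That fit kept only 2 UNX/DOCA vehicle libraries, and leaving out UNX/DOCA ITF2357 replicate 1 alone gave 14 calls. The loss of calls from a smaller group and from these 2 libraries in particular cannot be told apart. In UNX/DOCA vehicle against Sham vehicle, Flnc had a log2 fold change of 0.61 ± 0.16 with no overlap and did not pass (adjusted p = 0.127). Myot (0.54, adjusted p = 0.127) and Synpo2l (0.72, adjusted p = 0.142) did not pass either.

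Flnc is also made in smooth muscle. The summed level of markers of that cell type (5 markers, 4 of 5 tested, with Tagln under 1 CPM) was 199.6 to 397 CPM in UNX/DOCA ITF2357, 415.6 to 601 CPM in UNX/DOCA vehicle and 370.3 to 526 CPM in Sham vehicle. The ITF2357 libraries were all below those of UNX/DOCA vehicle and overlapped those of Sham vehicle. The sum followed mainly Acta2, smooth muscle actin, which averaged 149 CPM in UNX/DOCA ITF2357, 307 CPM in UNX/DOCA vehicle and 288 CPM in Sham vehicle. Myh11, the smooth muscle myosin, averaged 35.4, 36.9 and 22.4 CPM in the same order of groups, and Cnn1 3.77, 4.13 and 1.21 CPM. Smtn, smoothelin, was the marker called, and fell to 98.1 ± 3.74 CPM in UNX/DOCA ITF2357, against 138 ± 5.46 CPM in Sham vehicle (log2 fold change -0.49, adjusted p = 0.0229). The part of smooth muscle in the Flnc level was not tested. Pdlim7, a Z-disc LIM adaptor, fell in UNX/DOCA ITF2357 against UNX/DOCA vehicle (28.7 ± 3.99 and 43.9 ± 5.01 CPM; log2 fold change -0.61, adjusted p = 0.0378) and against Sham vehicle (41.4 ± 4.91 CPM; -0.53, adjusted p = 0.0436). Trim55, a titin-binding ubiquitin ligase of the M-band, fell likewise against UNX/DOCA vehicle (118 ± 7.98 and 148 ± 6.65 CPM; -0.32, adjusted p = 0.0388) and against Sham vehicle (144 ± 3.14 CPM; -0.29, adjusted p = 0.0418). For both genes every ITF2357 library lay below every library of the other groups.

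Of 9 other FHL, CSRP and LIM genes tested of 10, edgeR called 0, then 1 lower, then 1 higher in the 3 comparisons, with medians of 0.44, -0.20 and 0.00. At an unadjusted p under 0.05 there were 5 higher and 0 lower, then 0 higher and 3 lower, then 3 higher and 1 lower. Over all genes, 15.9%, 18.5% and 20.1% passed that threshold in either direction. Fhl3, the sister of Fhl1 and Fhl2, had 4.66, 5.62, 4.20 and 2.86 CPM in UNX/DOCA ITF2357 and 7.52, 10.7, 8.98 and 8.27 CPM in UNX/DOCA vehicle. The groups were apart in every library, and Fhl3 fell by 1.03 on the log2 scale (adjusted p = 0.0300). Csrp2, the smooth muscle relative of Csrp3, rose in UNX/DOCA ITF2357 against Sham vehicle (21.5 ± 4.60 and 13.9 ± 1.36 CPM; log2 fold change 0.63, adjusted p = 0.0418). Crip1 in UNX/DOCA vehicle against Sham vehicle had 61.8 ± 4.82 and 43.8 ± 4.31 CPM, with no overlap, and its adjusted p of 0.0649 was the smallest value reached in that comparison.

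Of 18 other genes known to be induced by cardiac load, edgeR called 0, then 1 lower, then 1 higher in the 3 comparisons. The medians were 0.70, -0.73 and -0.19. At an unadjusted p under 0.05 there were 9 higher and 0 lower, then 1 higher and 8 lower, then 2 higher and 1 lower. Over all genes, 15.9%, 18.5% and 20.1% passed that threshold in either direction. These medians and counts include UNX/DOCA vehicle replicates 3 and 4. Rcan1, an inhibitor and target of calcineurin, had 101, 115, 118 and 97.1 CPM in UNX/DOCA ITF2357 and 255, 178, 168 and 334 CPM in UNX/DOCA vehicle. All ITF2357 libraries were lower, and Rcan1 fell by 1.12 on the log2 scale (adjusted p = 0.0324). Against Sham vehicle the called gene was Nppa, given above. The 19 intercalated disc and costamere genes tested of 20 had medians of -0.09, -0.08 and -0.06, with 0, 0 and 1 called. At an unadjusted p under 0.05 they had 2 higher and 0 lower, then 0 higher and 5 lower, then 0 higher and 4 lower. The called gene was Itgb1bp2 (melusin, a stretch-sensing partner of integrins). It fell to 141 ± 15.9 CPM in UNX/DOCA ITF2357, against 188 ± 8.33 CPM in Sham vehicle (log2 fold change -0.41, adjusted p = 0.0332).

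Candidate regulators and YAP/TAZ-TEAD targets were not called. Of 20 YAP/TAZ-TEAD targets tested of 21 and 16 candidate upstream transcription factors, edgeR called 0 in each comparison. The medians of their log2 fold changes in the order of comparisons above were 0.34, -0.18 and 0.10 for the targets and -0.16, -0.06 and -0.17 for the factors. At an unadjusted p under 0.05, 9 higher and 1 lower of the 20 targets were found in UNX/DOCA vehicle against Sham vehicle, 1 higher and 2 lower in UNX/DOCA ITF2357 against UNX/DOCA vehicle, and 4 higher and 2 lower in UNX/DOCA ITF2357 against Sham vehicle. For the 16 factors these counts were 0 higher and 3 lower, 0 higher and 3 lower, and 1 higher and 4 lower. Over all genes, 15.9%, 18.5% and 20.1% passed that threshold in the 3 comparisons in either direction. The 3 of 20 targets in the second comparison and the 3 of 16 factors in the first 2 lie near the background. The 9 higher and 1 lower of 20 targets in the first comparison lie above 15.9%, with UNX/DOCA vehicle replicates 3 and 4 included. In the third comparison the targets and the factors lie somewhat above 20.1%. Because the lists were chosen with earlier results of these data known, these counts are a description and not a test of the lists. Ccn1, Ccn2 and Tgfb2 are in both the target list and the load-induced list, so the counts of these 2 lists are not independent. Mef2d (log2 fold change -0.45, adjusted p = 0.0593) and Nkx2-5 (-0.40, adjusted p = 0.0595), both cardiac transcription factors, had the smallest p-values of that list in UNX/DOCA ITF2357 against Sham vehicle.

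**Figure D5:**
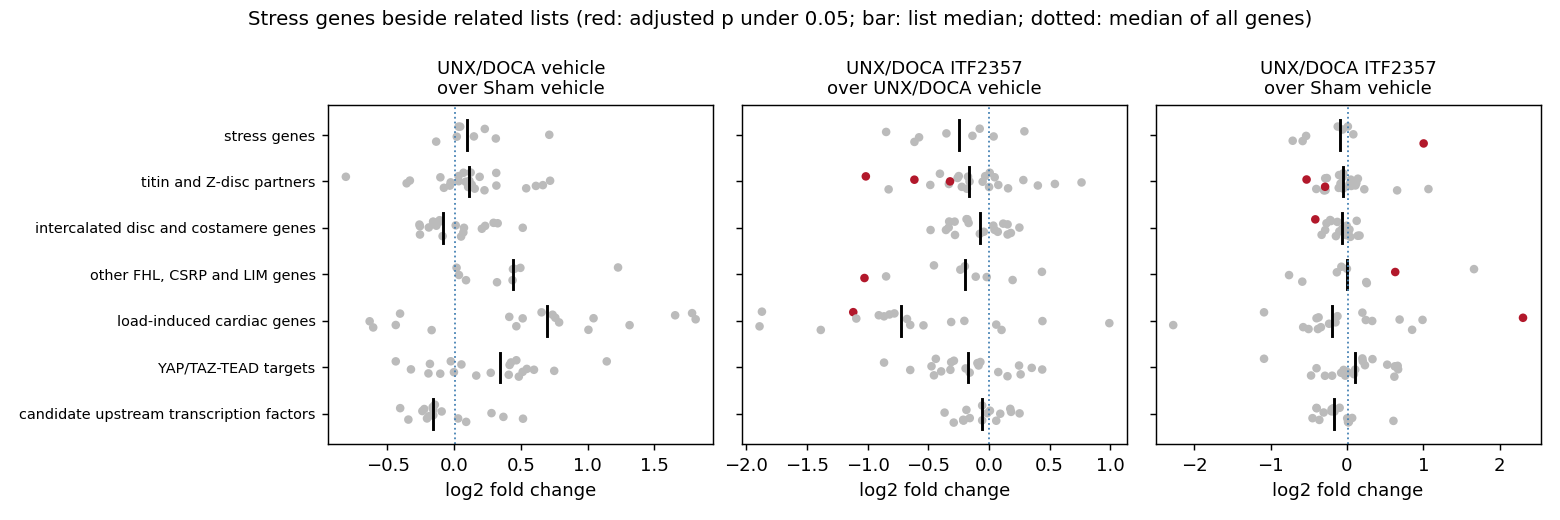
Log2 fold changes of the 8 genes and of the genes in each related list, 1 point per gene, in the 3 comparisons, with the list medians. Load-induced genes have the medians farthest from 0 in the first 2 comparisons (0.70 and -0.73), and the 8 genes have 0.10 and -0.24.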

How the data were processed

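Left ventricular RNA (about 10 mg of tissue) was made into strand-specific poly(A) libraries and read as pairs of 150 bp, per the labels' protocols. The authors deposited raw read counts per Ensembl gene, with no normalization. Per the submitters' processing notes, the tools were FastQC 0.11.9 and STAR 2.7.10b and the build was mm39. How reads were counted, whether strand was used and which annotation served was not given in the sources used here. As a result, antisense reads may be included. The titles of the 4 drug libraries all say ITF2357 while another field counts upward from that number, and grouping followed the titles. Per the labels, replicates are separate biological samples. Between replicates of the same group, counts differed by 10.9 to 57.3 times counting error (chi-square per degree of freedom), so none was the same library read again. Libraries of different groups were not compared in this way.

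The test was that of edgeR 4.0.16 under R 4.3.3 (filterByExpr with a minimum count of 10, TMM scaling, robust quasi-likelihood F test) in 1 fit of all 12 libraries with a term per group (9 residual degrees of freedom, common biological coefficient of variation 0.187). P-values were adjusted by Benjamini-Hochberg over 16981 genes in each comparison, with a threshold of 0.05, and this is the test behind a gene's adjusted p wherever no tool stands beside it. Fold changes give the first group named over the second, and standard errors are the fold change on the log2 scale divided by the square root of F. Likeness and correlations were computed from log2 CPM (prior count 2). The fit was tested on simulated data.

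Symbols were matched by Ensembl identifier and covered at least 99.2% of the counts. Exon lengths and overlaps came from an annotation of GRCm38, not the authors' build. The 8 genes and the lists were chosen with earlier results of these data known. The text names the 8 genes, the called genes and some of the 3 smallest p-values of each related list, and up to 3 most alike genes. Alternatives were other scalings and filters, DESeq2 1.42.0, limma-voom 3.58.1 with sample weights, fits without the uninvolved group, a replicate block, and libraries left out. Replicate numbers were not taken to pair animals. Over 12 same-numbered pairs, centred expression correlated between -0.19 and 0.25, with 3 of 12 above 0.1. Pairs of different numbers were not computed as a reference, so these values cannot decide whether the numbers mark a shared factor.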

Additional observations from a re-analysis of the deposited data

Results flagged for a closer look

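Ankrd2 in UNX/DOCA vehicle replicate 4 (0.539 CPM) stood above the other 3 libraries of its group (0.332 to 0.356 CPM), with a gap of 0.889 of the group's range. Fhl2 in UNX/DOCA ITF2357 replicate 2 (1336 CPM) stood below the other 3 libraries of its group (1544 to 1574 CPM), with a gap of 0.875 of the range. Both exceed the 95% critical value of Dixon's test for 4 libraries. Among 24 groups of 4 looked at, 2 passed it, and chance alone flags about 1 in 20 groups. Ankrd2 had at most 18 counts in a library.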

How the results depend on the processing

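Counts of called members differed between settings. In UNX/DOCA vehicle against Sham vehicle, 1 of 8 was called by DESeq2, by limma-voom with sample weights (which changes tool and weighting together) and with a replicate block, each time Ankrd1 (block: log2 fold change 0.74, adjusted p = 0.0344), against 0 in edgeR. In UNX/DOCA ITF2357 against UNX/DOCA vehicle, DESeq2 called 1 (Xirp1) against 0. In UNX/DOCA ITF2357 against Sham vehicle, DESeq2 called 2 (Ankrd1 and Ankrd23) against 1, edgeR without a filter called 1, which was Ankrd23 in place of Ankrd1, and leaving out each library in turn gave 0 to 1. In the other comparisons these left-out fits called 0. Ankrd1 against Sham vehicle was called in 17 of 22 alternatives. Replicate numbers were not taken to pair animals, and the block changed no other member's call.

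Over all genes, edgeR's 0, 153 and 298 calls became 593, 928 and 1180 in DESeq2, 559, 239 and 1528 in limma-voom, 31, 68 and 192 with the block, 210, 352 and 410 without a filter, 0, 5 and 475 in fits of the groups compared, 1, 12 and 481 without UNX/DOCA vehicle replicates 3 and 4, and 0 to 380, 14 to 243 and 17 to 616 with each library left out. Upper-quartile scaling gave 7 calls in the first comparison, and 108 higher and 65 lower in the second (main 78 and 75). In the third it gave 214 higher and 89 lower, and library totals 172 and 98 (main 155 and 143).

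Signs turned for the following differences, none of which had passed the test. In UNX/DOCA vehicle against Sham vehicle, limma-voom gave 0.0054 for Ankrd23 and -0.012 for Fhl2, and without UNX/DOCA vehicle replicates 3 and 4 both Ankrd2 and Xirp1 were at -0.14. Without those libraries Csrp3 was at -0.085 in UNX/DOCA ITF2357 against UNX/DOCA vehicle, and without a filter Xirp2 was at -0.00477 in UNX/DOCA ITF2357 against Sham vehicle. With each library left out, log2 fold changes in UNX/DOCA vehicle against Sham vehicle ran from -0.23 to 0.49 for Ankrd2, -0.26 to 0.12 for Ankrd23, -0.030 to 0.092 for Csrp3, -0.016 to 0.37 for Fhl1, -0.10 to 0.067 for Fhl2 and -0.018 to 0.30 for Xirp2. In UNX/DOCA ITF2357 against UNX/DOCA vehicle they ran from -0.015 to 0.11 for Csrp3, -0.13 to 0.035 for Fhl2 and -0.30 to 0.024 for Xirp2, and against Sham vehicle from -0.080 to 0.092 for Xirp2 and -0.35 to 0.017 for Fhl1. The causes were not tested. The order of means per length was the same with longest transcripts in Sham vehicle and UNX/DOCA ITF2357, while in UNX/DOCA vehicle Ankrd1 and Csrp3 changed places. In each variant run, 0 pairs of members had a correlation that passed after adjustment over the pairs. With 4 libraries a group, small differences are out of reach, and Ankrd2 is limited by its counts.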
